A study of Mus musculus with 10 samples.

Results

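The 35 genes described here act in mitosis: they encode mitotic cyclins and kinases, kinetochore and spindle checkpoint proteins, condensin, and proteins of the spindle and of cytokinesis, together with *Mki67*, the gene of the proliferation marker Ki-67. They were chosen by name, with earlier results of these data known, and their Ensembl gene IDs were looked up in the deposited gene counts. All 35 were found among 54232 genes and passed the filter on low counts that left 20043 genes for testing. The question set for them was whether *Mki67* moved with the other 34. RNA-seq was carried out on testes of mice at postnatal day 4 (P4), with 5 *Dis3* cKO and 5 control libraries. The floxed *Dis3* line was made in zygotes of B6D2F1 mice and crossed with *Ddx4-Cre* mice. *Dis3* cKO mice were *Dis3* F/-; *Ddx4-Cre*, so that 1 allele was deleted in every cell and exons of the floxed allele were removed in male germ cells, where *Ddx4-Cre* is expressed from before birth. Controls were siblings from the same litters that the labels call *Dis3* WT, and the testes of 1 mouse were pooled for each library. *Dis3* encodes a catalytic subunit of the nuclear RNA exosome, which trims and degrades RNA from its 3′ end.

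In mitosis, cyclin B and CDK1 drive entry, condensin and topoisomerase II compact and untangle the chromosomes, and the NDC80 complex at the outer kinetochore holds the microtubules. The spindle checkpoint keeps CDC20 from activating the anaphase-promoting complex (APC/C) until every kinetochore is attached, and the central spindle and anillin then divide the cell. Ki-67 coats the surface of mitotic chromosomes and is widely used to stain cycling cells. In the testis at this age both germ cells and Sertoli cells divide, so RNA of mitotic genes in whole testes can come from both. In such bulk samples, fewer cells of a type and less RNA per cell cannot be told apart.

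Many genes of this kind share 2 short promoter motifs, the cell cycle genes homology region (CHR, TTTGAA or TTCGAA), which the MuvB complex binds, and CCAAT, which NF-Y binds. Promoter windows from 250 bases before to 50 bases after the start were taken from RefSeq (GRCm38.p6) for 29 of the 35 members, and no window was used for *Aurkb*, *Ccna2*, *Kif20a*, *Smc4*, *Spc24* or *Tpx2*. The stretches of 30 bases below show the CHR letters in capitals for *Mki67*, for 3 members that were lower in *Dis3* cKO testes (*Ndc80*, *Cenpa*, *Ncapg*) and for 2 that were not called (*Cdc20*, *Ccnb2*), and, for the lower member *Ccnb1*, the CCAAT letters in capitals. All run 5′ to 3′ along the gene, so that TTCAAA in *Ndc80* is a CHR on the opposite strand.
Mki67, chr7:135716478-135716507, minus strand: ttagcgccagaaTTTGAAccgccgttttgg
Mki67, chr7:135716460-135716489, minus strand: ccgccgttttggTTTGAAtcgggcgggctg
Ndc80, chr17:71526811-71526840, minus strand: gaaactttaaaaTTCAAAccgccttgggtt
Cenpa, chr5:30666890-30666919, plus strand: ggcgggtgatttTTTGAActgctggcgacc
Ncapg, chr5:45669883-45669912, plus strand: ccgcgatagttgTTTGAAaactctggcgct
Cdc20, chr4:118437344-118437373, minus strand: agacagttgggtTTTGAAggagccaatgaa
Ccnb2, chr9:70421533-70421562, minus strand: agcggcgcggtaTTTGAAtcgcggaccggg
Ccnb1, chr13:100786568-100786597, minus strand: gaacccgcggcgCCAATgggaagagagcga
Ccnb1, chr13:100786536-100786565, minus strand: gccacgaactggCCAATgaggagcgagcgg

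Searched on both strands, CHR letters were found in 22 of the 29 windows (75.9%), against 13.9% of the 11689 windows of all tested protein-coding genes. CCAAT letters were likewise found in 22 members (75.9%), against 38.7% of all windows, and 20 members (69%) held both motifs, against 6.04%. No CHR of a member shared a base with its CCAAT or E2F letters, and a match in a window of this length is a description and not a bound site. In 20 members (69%), against 3.5% of all windows, a CHR began within 50 bases of the start. *Mki67* was 1 of the 2 exceptions among members with a CHR: its copies began at positions -116 and -98 from the start, downstream of 3 CCAAT motifs, and that of *Ncapd2*, a condensin subunit, also lay farther out. All positions are from the RefSeq start. It lay 18 bases from the gene start of the deposited counts for *Mki67*, 115 for *Ncapd2* and 109 for *Cenpa*. Whether a CHR lies within 50 bases can therefore depend on the start used. E2F letters (TTTCCCGC or TTTGGCGC) were found in 2 members (6.9%), against 2.93%. Of the 5 members that were lower in *Dis3* cKO testes, *Ndc80*, *Cenpa* and *Ncapg* held CHR letters, and no CHR was found in the windows of *Ccnb1* and *Mad2l1*. The window of *Ccnb1* held 2 CCAAT motifs. The RefSeq starts of *Ccnb1* and *Mad2l1* lay 84 and 169 bases from the gene starts of the deposited counts.

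**Figure D1:**
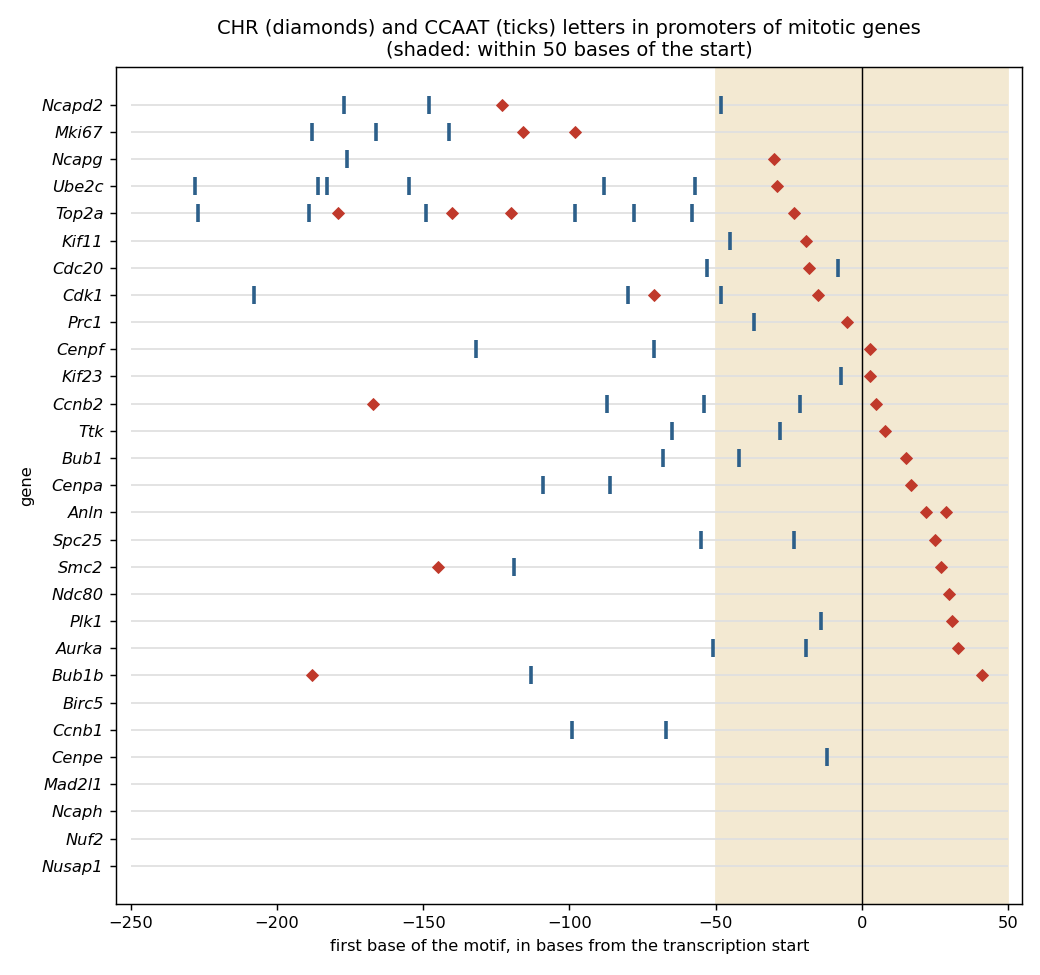
Position of CHR (diamonds) and CCAAT (ticks) letters in the promoter windows of 29 mitotic genes, in bases from the RefSeq transcription start, with the 50 bases on either side of the start shaded. In 20 genes a diamond lies in the shaded part, while both diamonds of *Mki67* lie before it.

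Each library held 28538849 to 37739906 counts in *Dis3* cKO testes and 35391042 to 41104912 in control testes. *Dis3* itself was at 1493 ± 167 normalized counts (SD, n = 5) in *Dis3* cKO and 4596 ± 493 in control testes (SD, n = 5), without overlap, a log2 fold change of -1.62 (SE 0.09). Normalized counts are raw counts divided by TMM-scaled library sizes. The libraries of both genotypes fell into clusters known from earlier results of these counts, replicates 1 to 3 and replicates 4 and 5, which no label explains, so values within each cluster are given beside the results. Of 13 germ cell markers 4 were lower in *Dis3* cKO testes and none higher, and their summed level was 568 to 760 CPM in *Dis3* cKO and 827 to 1003 CPM in control testes. Of 10 Sertoli markers 1 was higher and none lower, and 9 had log2 fold changes above 0, with a median of 0.12 over the 10. Their summed level of 5799 to 7947 CPM in *Dis3* cKO (median 7300) overlapped that of 5772 to 6317 CPM in control testes (median 6262). Of all genes tested, 3.48% were called lower and 4.42% higher. No germ cell or Sertoli marker was at 0 in every library. The part of these shifts in the values below was not tested.

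With all 10 libraries, *Mki67* was higher in *Dis3* cKO testes, 5 members were lower (*Ndc80*, *Ccnb1*, *Mad2l1*, *Cenpa*, *Ncapg*), and 29 were not called. In all genes tested, 3.48% were called lower and 4.42% higher (edgeR quasi-likelihood test, Benjamini-Hochberg adjusted p under 0.05), while 14.3% of the members were called lower. Since the members were chosen with earlier results of these data known, their share is a description. The 5 lower members have different tasks: 1 holds microtubules, 1 is the histone variant of the centromere, 1 is a cyclin, 1 is a checkpoint protein and 1 belongs to condensin. Their log2 fold changes were -0.44 to -0.30, and their groups did not overlap, nor did those of *Mki67*, where 4.31% of all genes were apart in the lower and 4.58% in the higher direction. The log2 fold changes of 27 members were below 0 and those of 8 were above 0, with a median of -0.14, against -0.013 over all genes tested. Without adjustment 13 members passed as lower and 1 as higher, where 12.1% and 11.8% of all genes did.

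**Figure D2:**
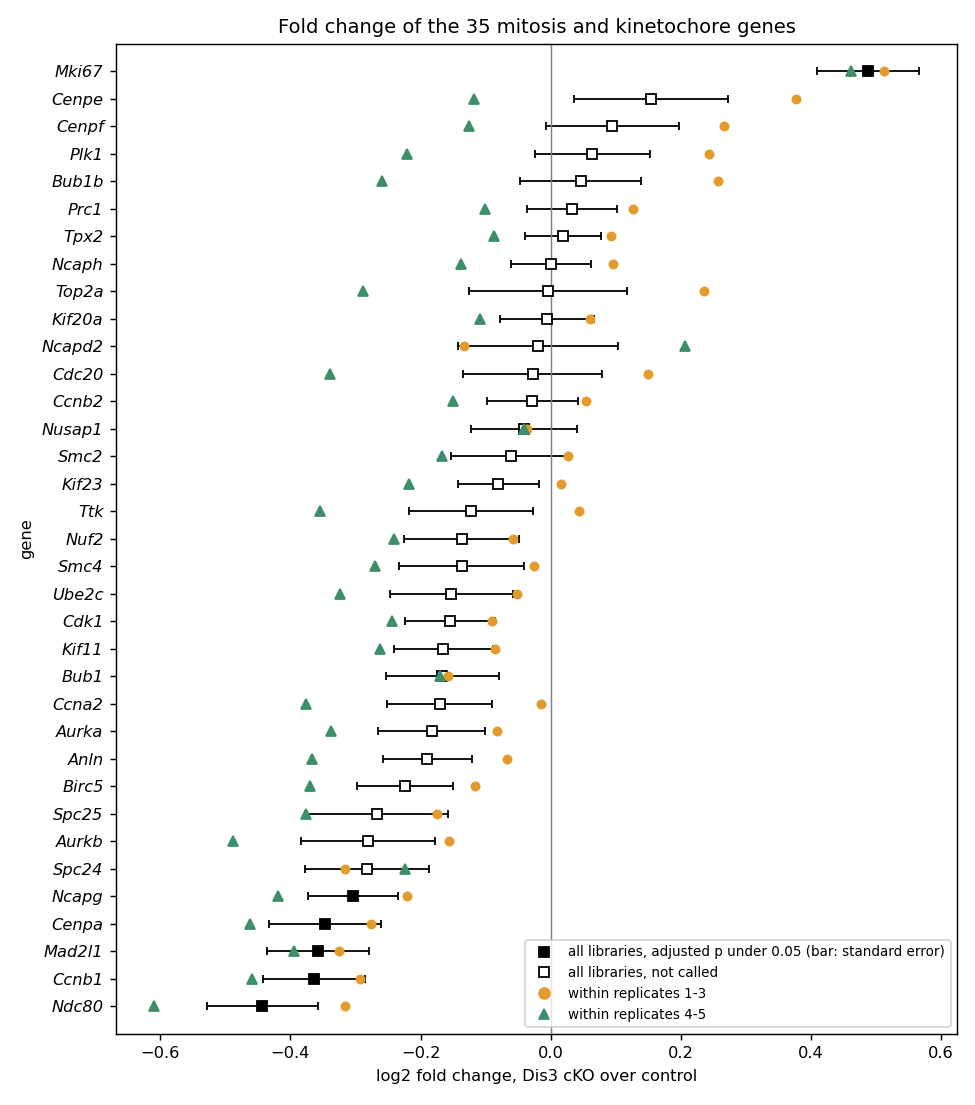
Log2 fold change (*Dis3* cKO over control) of the 35 genes, with squares and standard errors for all 10 libraries (filled, adjusted p under 0.05), round markers for the cluster of replicates 1 to 3 and triangles for that of replicates 4 and 5. *Mki67* stands alone at 0.49, the next gene, *Cenpe*, is at 0.15, and the triangles lie left of 0 for 33 genes.

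*Mki67* (ENSMUSG00000031004.8, chr7:135689784-135716361 on the minus strand of GRCm38, counted over exons) was at 45657, 43372, 43526, 47948 and 45263 normalized counts in *Dis3* cKO testes, against 28988, 28003, 35962, 33942 and 34103 in control testes. Every *Dis3* cKO library was above every control library, and among the controls replicates 1 and 2 were lowest. The log2 fold change was 0.49 (SE 0.08, 1.40-fold), with an edgeR adjusted p of 0.00303. In replicates 1 to 3 alone it was 0.51 and in replicates 4 and 5 alone 0.46, and the test of that difference was not passed (interaction, edgeR adjusted p 0.88). Leaving out each library in turn gave 0.44 to 0.54. It was 0.40 once the dependence on gene length within each library was taken out. No other annotated gene of the same strand lies within its span.

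None of the other 34 members was called higher with *Mki67*. Their summed normalized counts were 156327 ± 6508 in *Dis3* cKO and 162852 ± 15244 in control testes (SD, n = 5 each), and the groups overlapped. *Mki67* came to 28.9% ± 1.45 of that sum in *Dis3* cKO libraries (27.5% to 30.5%) and to 19.8% ± 1.94 in control libraries (18.6% to 23.2%; SD, n = 5 each), without overlap. In log2 CPM, *Mki67* exceeded the median level of the other 34 by 3.70 ± 0.15 in *Dis3* cKO and 3.23 ± 0.15 in control libraries, a difference of 0.47, and it exceeded their mean by 3.78 ± 0.09 in *Dis3* cKO and 3.16 ± 0.14 in control libraries. These scores are descriptions with no test, since the genes were chosen with results of these libraries known. Against *Top2a*, which encodes topoisomerase IIα and is the next most counted member, the ratio of *Mki67* was 2.25, 2.36, 2.42, 2.42 and 2.40 in *Dis3* cKO libraries, against 1.92, 1.75, 2.12, 1.41 and 1.46 in control libraries. The ratio hardly varied in *Dis3* cKO testes, and the lowest ratios were those of control replicates 4 and 5, where *Top2a* itself was high.

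**Figure D3:**
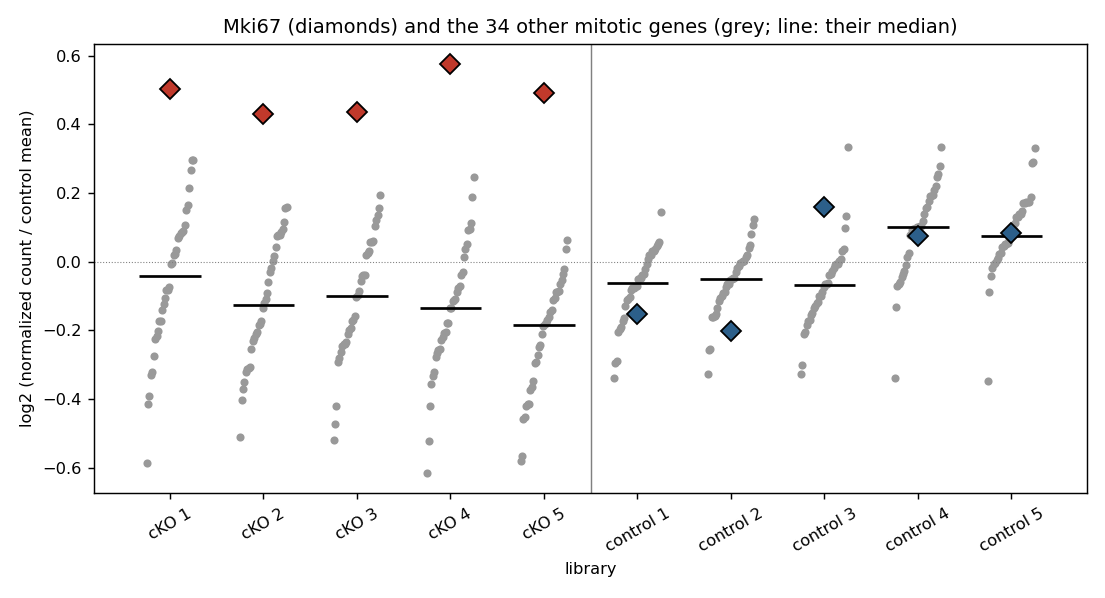
Log2 of the normalized count over the control mean in each of the 10 libraries, *Dis3* cKO on the left, for *Mki67* (diamonds) and the other 34 genes (grey points, their median as a line). The diamonds lie above all grey points in the 5 *Dis3* cKO libraries and within the range of the grey points in the 5 control libraries.

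Among the NDC80 complex genes only *Ndc80* was called. *Ndc80* (chr17:71496100-71526857), whose protein binds the microtubule directly, was at 1402, 1291, 1374, 1461 and 1230 normalized counts in *Dis3* cKO testes, against 1641, 1724, 1695, 2141 and 1987 in control testes. Every *Dis3* cKO library was below every control library, and control replicates 4 and 5 were highest. Its log2 fold change of -0.44 (SE 0.09, edgeR adjusted p 0.0075) was the lowest of the 35. *Spc24* and *Spc25*, which anchor the complex to the inner kinetochore, had log2 fold changes of -0.28 (SE 0.10) and -0.27 (SE 0.11) and were not called, and *Nuf2*, the partner of NDC80, was at -0.14 (SE 0.09). The direction was therefore shared by all 4 subunits, while the test was passed by 1.

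At the centromere, *Cenpa* (chr5:30666777-30674830), the histone H3 variant that marks it, was at 1236, 1297, 1291, 1041 and 1011 normalized counts in *Dis3* cKO testes, against 1543, 1629, 1459, 1436 and 1406 in control testes. The groups did not overlap, and the lowest values of each group were in replicates 4 and 5. The log2 fold change was -0.35 (SE 0.09, edgeR adjusted p 0.0257). Of the 6 calls it was the only one lost when a library was left out, without *Dis3* cKO replicate 4 or 5 (log2 fold change -0.31 and -0.30, adjusted p 0.0548 and 0.0652) and without control replicate 1 or 2 (-0.33 and -0.31, adjusted p 0.0657 and 0.0741). The large proteins of the kinetochore's outer corona had values above 0, *Cenpe*, a kinesin, at a log2 fold change of 0.15 (SE 0.12) and *Cenpf* at 0.095 (SE 0.10), and neither was called.

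*Ccnb1* (chr13:100778650-100786570) encodes cyclin B1, the main partner of CDK1, and was at 745, 778, 811, 795 and 726 normalized counts in *Dis3* cKO testes, against 925, 1027, 907, 986 and 1117 in control testes. The groups did not overlap, and the *Dis3* cKO libraries lay close together. The log2 fold change was -0.36 (SE 0.08, edgeR adjusted p 0.0131). *Ccnb2*, the other B-type cyclin, was at 2948 ± 262 in *Dis3* cKO and 3007 ± 135 in control testes (SD, n = 5 each), and its log2 fold change was -0.028 (SE 0.070). *Ccna2* (cyclin A2, -0.17, SE 0.08) and *Cdk1* (-0.16, SE 0.07) were not called. A pseudogene, *Ccnb1-ps*, held 30.6 counts on average beside 891 for *Ccnb1*. Reads placed equally well on both copies would not be counted, and their number was not measured.

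Of the spindle checkpoint genes, *Mad2l1* (chr6:66535390-66547220), which encodes MAD2, the inhibitor of CDC20, was at 2143, 2025, 1870, 2304 and 2106 normalized counts in *Dis3* cKO testes, against 2613, 2625, 2327, 2860 and 2968 in control testes. The highest *Dis3* cKO library, replicate 4, was just below the lowest control library, replicate 3. The log2 fold change was -0.36 (SE 0.08, edgeR adjusted p 0.0144). The checkpoint kinases were not called: *Bub1* was at a log2 fold change of -0.17 (SE 0.09), *Ttk*, the kinase MPS1, at -0.12 (SE 0.09) and *Bub1b*, the gene of BUBR1, at 0.046 (SE 0.093).

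In condensin I, *Ncapg* (chr5:45669919-45700546), a HEAT-repeat subunit, was at 1341, 1262, 1291, 1315 and 1141 normalized counts in *Dis3* cKO testes, against 1490, 1569, 1476, 1685 and 1619 in control testes. The groups did not overlap, and the log2 fold change was -0.30 (SE 0.07, edgeR adjusted p 0.0171). The kleisin *Ncaph*, which binds NCAPG in the same complex, was at 3662 ± 202 in *Dis3* cKO and 3662 ± 169 in control testes (SD, n = 5 each). The other HEAT-repeat subunit *Ncapd2* and the ATPases *Smc2* and *Smc4* had log2 fold changes of -0.020, -0.061 and -0.14 (SE 0.12, 0.091 and 0.096) and were not called. *Top2a* was at 20292, 18350, 17994, 19789 and 18824 in *Dis3* cKO testes, against 15115, 15994, 16989, 24076 and 23341 in control testes. The *Dis3* cKO values lay between the control values of replicates 1 to 3 and those of replicates 4 and 5, which gave a log2 fold change of -0.0037 with an SE of 0.12.

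**Figure D4:**
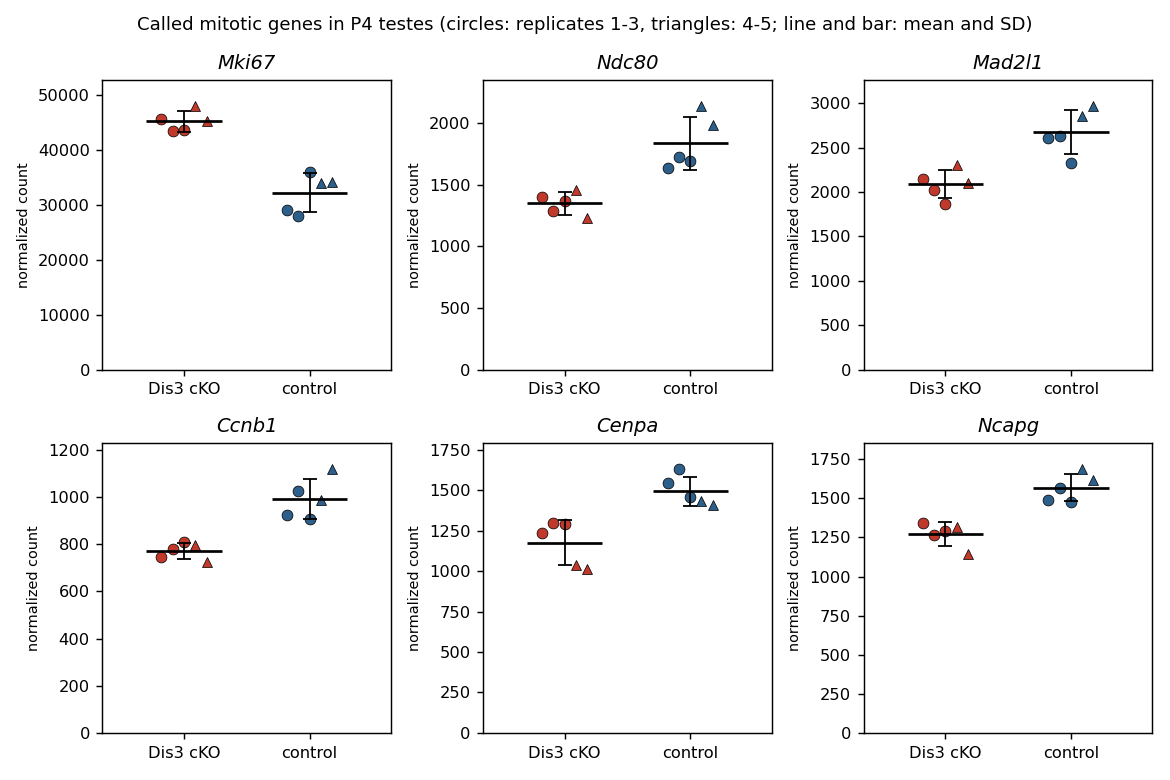
Normalized counts of the 6 called genes in the 5 *Dis3* cKO libraries (left of each panel) and the 5 control libraries (right), drawn as circles (replicates 1 to 3) or triangles (4 and 5), and the mean and SD in black. The groups do not overlap in any panel, with *Mki67* higher and the other 5 genes lower in *Dis3* cKO testes.

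None of the members *Aurka*, *Aurkb* and *Plk1*, the Aurora and Polo kinases, was called, nor was *Birc5*, which encodes survivin, the partner of Aurora B at the centromere. *Aurkb* (-0.28, SE 0.10, edgeR adjusted p 0.11), *Birc5* (-0.22, SE 0.07, adjusted p 0.0808) and *Aurka* (-0.18, SE 0.08) had log2 fold changes below 0, and *Plk1* (0.064, SE 0.089) above. *Plk1* was at 3473, 3151, 3076, 2452 and 2627 normalized counts in *Dis3* cKO testes, against 2681, 2736, 2777, 3013 and 2935 in control testes. Its *Dis3* cKO libraries lay above all controls in replicates 1 to 3 and below all controls in replicates 4 and 5. The same held for *Cdc20*, the APC/C activator, at 3370, 3495, 3578, 2340 and 2553 in *Dis3* cKO testes, against 3112, 3172, 3130, 3072 and 3152 in control testes (log2 fold change -0.028, SE 0.11). *Ube2c*, the E2 enzyme of the APC/C, was at -0.15 (SE 0.09).

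The 7 genes of the spindle and of cytokinesis were not called. Their log2 fold changes were -0.19 (SE 0.07, edgeR adjusted p 0.104) for *Anln*, the gene of the contractile ring protein anillin, -0.16 (SE 0.08) for *Kif11*, the motor that separates the poles, and -0.081 (SE 0.062) for *Kif23*, a motor of the central spindle. *Nusap1* and *Kif20a* were at -0.041 and -0.0052, and *Tpx2* and *Prc1*, which encode proteins of the spindle and its midzone, at 0.019 and 0.033. *Tpx2* had the smallest SE of the 35, 0.058, at 6555 ± 361 normalized counts in *Dis3* cKO and 6471 ± 164 in control testes (SD, n = 5 each).

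Per kilobase of exon, *Mki67* was the highest member in both genotypes, at 4488 normalized counts per kb in *Dis3* cKO and 3200 in control testes. *Ccna2* came next with 2445 in *Dis3* cKO and 2753 in control testes, then *Top2a* with 2114 in *Dis3* cKO and 2120 in control testes. At the other end were *Ncapg* (180 in *Dis3* cKO and 222 in control testes), *Ccnb1* (183 in *Dis3* cKO and 235 in control testes) and *Cenpa* (201 in *Dis3* cKO and 255 in control testes). Of the 5 lower members, 4 thus ranked 30th or below among the 35 in control testes, and *Ndc80*, at rank 20, was the exception. Exon lengths are those of the merged annotated exons, and no isoform was measured.

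The 2 clusters of libraries differed for many of these genes. Within replicates 1 to 3, *Ndc80*, *Cenpa* and *Mad2l1* were lower and *Mki67* and *Cenpe* higher in *Dis3* cKO testes, where 2.74% of all genes were called lower and 4.8% higher. *Ccnb1* and *Ncapg* missed the threshold there (edgeR adjusted p 0.0617 and 0.0882). Within replicates 4 and 5, 22 members were lower, and *Mki67* and *Ncapd2* higher, where 11.7% of all genes were called in each direction. The median log2 fold change of the members was -0.036 in replicates 1 to 3, with 20 of 35 below 0, and -0.26 in replicates 4 and 5, with 33 of 35 below 0. *Ndc80*, *Cenpa* and *Mad2l1* were thus called lower in both clusters, and *Mki67* higher in both.

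The fold change itself differed between the clusters for 6 members by edgeR's interaction test, where 4.58% of all genes passed it, and in each it was lower in replicates 4 and 5. The cluster of replicates 4 and 5 held 2 libraries of each genotype. Without either of them a genotype had a single library there, so the test was not judged with libraries left out. The 6 were *Top2a* (difference in log2 fold change -0.53, adjusted p 0.00516), *Bub1b* (-0.52, 0.0111), *Cenpe* (-0.50, 0.0308), *Cdc20* (-0.50, 0.00569), *Plk1* (-0.47, 0.0134) and *Ccna2* (-0.37, 0.0292). The mean of *Top2a* in replicates 4 and 5 was 1.02 times that in replicates 1 to 3 in *Dis3* cKO testes and 1.48 times in control testes, and that of *Cenpe* 1.004 times in *Dis3* cKO and 1.42 times in control testes. For *Cdc20* the ratios were 0.70 in *Dis3* cKO and 0.992 in control testes, and for *Plk1* 0.79 in *Dis3* cKO and 1.09 in control testes. The clusters thus differed mainly among the controls for *Top2a* and *Cenpe* and mainly among the *Dis3* cKO libraries for *Cdc20* and *Plk1*. Germ cell markers moved with this split: 4 of 13 were lower in replicates 1 to 3, with a median log2 fold change of -0.022, and 9 of 13 in replicates 4 and 5, with a median of -0.84 and all 13 below 0. Of 6 myoid markers 3 were lower and none higher in replicates 1 to 3, and 5 were higher and none lower in replicates 4 and 5. Of 6 stromal markers 5 were higher in replicates 4 and 5 and none was called in replicates 1 to 3, with median log2 fold changes of 0.43 and -0.081. Of 6 endothelial markers 4 were higher in replicates 4 and 5 and none was called in replicates 1 to 3, with medians of 0.43 and -0.091. The part of these shifts in the fold changes of the mitotic genes was not tested.

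Of 129 tested genes in 7 lists of kinetochore, APC/C, cohesin, condensin II and passenger, spindle and cytokinesis, mitotic entry, and cell cycle transcription factors, 7 (5.43%) were lower and 1 higher in *Dis3* cKO testes, where 3.48% of all genes were lower and 4.42% higher, and their median log2 fold change was -0.10. *Esco2*, a cohesin acetyltransferase (-0.43, SE 0.09), *Pbk*, a mitotic kinase (-0.41, SE 0.12), *Plk4*, the kinase of centriole duplication (-0.38, SE 0.11), *Bora*, an activator of Aurora A (-0.38, SE 0.11), *Kif18a*, a kinesin of chromosome alignment (-0.33, SE 0.09), *Cep55*, which acts in abscission (-0.30, SE 0.07), and the APC/C subunit *Anapc15* (-0.29, SE 0.07) were lower, with edgeR adjusted p values of 0.0144 to 0.049. *Bora* lies beside *Dis3* on chromosome 14. *Numa1*, a protein of the spindle poles, was higher (0.28, SE 0.07, adjusted p 0.0222). None of the 35 further kinetochore genes was called, and none of the 22 genes of the MuvB, B-MYB, FOXM1, E2F and RB families. Of those 22, 5 passed as lower and 1 as higher without adjustment, where 12.1% and 11.8% of all genes did.

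A further readout of the same loci was the antisense RNA over the 3000 bases upstream of each gene (PROMPTs, promoter upstream transcripts), a class of short-lived RNA that the nuclear exosome is known to degrade. The deposited regions covered 23 of the 35 members, including *Mki67*. The authors kept only regions free of any other annotated gene, so none lay over these 23 by that choice. Upstream of each of the other 12 members lay 1 or 2 annotated genes. With at least 3 counts on average, 20 regions were tested; those of *Mki67*, *Bub1* and *Aurkb* fell short. Of the 20, 12 were higher in *Dis3* cKO testes and none lower, where 13.6% of all 12345 tested regions and 20.8% of those of protein-coding genes were called higher and 0.0486% of all regions lower (edgeR, gene table library sizes). With this scaling all 20 log2 fold changes were above 0, with a median of 1.601, against 0.64 over all tested regions, while with the regions' own library sizes the median of the 20 was 0.92 and the lowest was -0.47, against a median of -0.071 over all regions.

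Of the 20 regions, that of *Cdc20* had the highest mean in *Dis3* cKO testes. It was at 147, 97.8, 108, 43.2 and 43.0 normalized counts in *Dis3* cKO testes, against 27.9, 17.0, 14.3, 6.71 and 3.68 in control testes (chr4:118437353-118440352). Every *Dis3* cKO library was above every control library, replicates 4 and 5 were lowest in both genotypes, and the log2 fold change was 2.65 (SE 0.33, edgeR adjusted p 4.97e-13). *Birc5* was at 50.6, 41.8, 86.1, 43.2 and 27.2 in *Dis3* cKO testes, against 17.7, 6.60, 5.04, 9.59 and 0 in control testes, a log2 fold change of 2.66 (SE 0.41, adjusted p 6.56e-09). Upstream of *Ccnb1* (chr13:100786571-100789570) there were 33.3, 24.7, 14.5, 22.1 and 23.8 in *Dis3* cKO testes, against 6.52, 0.942, 0, 0 and 0.919 in control testes, a log2 fold change of 3.74 (SE 0.66, adjusted p 6.73e-07). This region was nearly silent in 4 of the 5 controls, where it held 0 or 1 raw count, while the *Ccnb1* mRNA itself was lower in *Dis3* cKO testes. The region passed the minimum through its *Dis3* cKO counts.

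*Spc24* had 88.8, 48.4, 49.2, 44.3 and 7.93 upstream normalized counts in *Dis3* cKO testes, against 13.97, 7.54, 16.8, 11.5 and 9.19 in control testes, and was called (log2 fold change 1.997, SE 0.39) although *Dis3* cKO replicate 5 fell among the controls. *Ttk* (1.81, SE 0.35) and *Cenpf* (1.48, SE 0.34) were higher with no overlap, as were *Anln* (1.48, SE 0.34), *Mad2l1* (2.41, SE 0.68) and *Top2a* (2.20, SE 0.65). *Ncaph* (1.85, SE 0.50), *Cenpa* (1.25, SE 0.45) and *Kif11* (0.96, SE 0.32) were called with overlapping groups, and the call of *Cenpa* was lost under a replicate block (edgeR adjusted p 0.105, against 0.0387 without it). Of the 20 regions, 10 did not overlap between the groups, where 11.1% of all tested regions were apart in this direction. The mRNA of the gene was lower in 3 of the 12 loci called (*Ccnb1*, *Cenpa* and *Mad2l1*) and not called in 9. A called region beside a higher mRNA was not possible, since *Mki67*, the only member called higher, had too few upstream counts for a test. The other lower members, *Ndc80* and *Ncapg*, had no deposited region. No relation of upstream RNA to mRNA is therefore read from these counts.

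**Figure D5:**
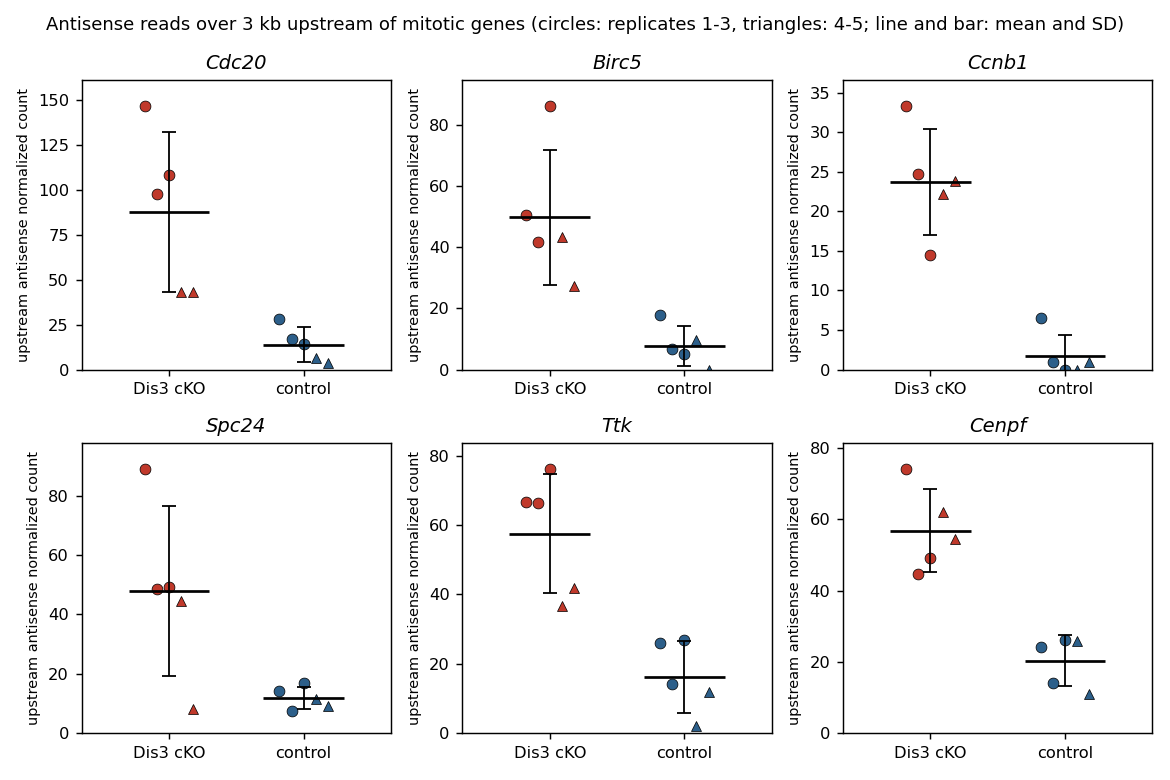
Antisense normalized counts over the 3000 bases upstream of 6 mitotic genes in the 5 *Dis3* cKO libraries (left of each panel) and 5 control libraries (right), drawn as circles (replicates 1 to 3) or triangles (4 and 5), and the mean and SD in black. The groups are apart in each panel but that of *Spc24*, where *Dis3* cKO replicate 5 lies among the controls at 7.93.

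Upstream of *Mki67* there were 5, 4, 6, 3 and 3 raw antisense counts in *Dis3* cKO libraries, against 0, 3, 5, 0 and 0 in control libraries, too few for a test. Of the 8 tested regions that were not called, *Ccnb2* and *Cdk1* were nearest to 0, with log2 fold changes of 0.39 (SE 0.69) and 0.20 (SE 0.70). These are few reads: summed over *Dis3* cKO libraries, the upstream counts came to 6.99% of the counts of the gene itself in *Spc24*, 4.67% in *Ttk*, 3.28% in *Birc5* and 2.83% in *Cdc20*, and to 0.01% in *Mki67*. The count of calls depended on the minimum and the scaling. At a mean of at least 10 counts, 11 of 12 members were called, but so were 49.9% of all regions, and with sizes and TMM factors computed from the regions themselves, 5 members (*Cdc20*, *Birc5*, *Ccnb1*, *Spc24* and *Ttk*) remained, against 5.28% of all regions.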

How the data were processed

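RNA-seq of P4 testes gave 5 *Dis3* cKO and 5 control libraries, sequenced after rRNA depletion with a strand-selecting kit. After trimming with cutadapt and alignment with HISAT2, the authors deposited raw counts from featureCounts 1.6.4 per gene (sense strand) and per upstream region (antisense strand), with no normalization. The file headers and processing notes name GENCODE 18 and GRCm38 (GRCm38.p5), while the published methods name later releases, so the coordinates are those of the files. Multi-mapping reads are not counted by the default setting of the program, so a gene with close copies can be undercounted. Symbols were assigned by gene ID for 50129 of 54232 IDs, which hold 99% of the counts.

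Counts were tested in R 4.3.3 with edgeR 4.0.16: filterByExpr (minimum count 10, minimum total 15), TMM, the quasi-likelihood test with no covariate, and Benjamini-Hochberg adjustment over all genes, two-sided, at 0.05. Upstream regions needed a mean of 3 counts over all 10 libraries and used library sizes and TMM factors of the genes. SE was taken from the F statistic. The interaction model crossed genotype with library cluster. Log2 CPM used a prior count of 2. The procedure was tested on simulated data. Alternatives were DESeq2 1.42.0, its size factors in edgeR, no filter, a length-trend correction, cluster and replicate-block terms, single clusters and leaving out each library.

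The members, gene lists, library clusters and the contrast of *Mki67* with the others were chosen with earlier results of these data known. All 35 members are named, and of each further list up to 4 genes with the lowest adjusted p past the threshold. *Lin54* was not matched and was left out of its list. The gene header lists 12 alignments, 10 of them different. At 28538849 to 41104912 counts per library the common biological coefficient of variation was 0.172. Each library came from a different mouse. The spread behind the p-values of the main test holds differences between mice together with the unexplained split between the library clusters. That test had no term for the split. With the cluster as a term, 8.33% of all genes were called lower and 8.84% higher, against 3.48% and 4.42% without it.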

Additional observations from a re-analysis of the deposited data

Results flagged for a closer look

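Control replicate 4 had the highest *Kif23* level of its group, 4485 normalized counts, where the other controls lay between 3928 and 4050. In the upstream antisense regions, control replicate 2 stood apart for *Nuf2* (10.4 normalized counts, the others 1.68 to 3.68), and control replicate 1 for *Spc25* (13.04, the others 0.84 to 2.88) and for *Ccnb1* (6.52, the others 0 to 0.942). Of 70 groups of gene values and 40 groups of region values examined, 1 and 3 held such a library by Dixon's test, which chance gives in about 1 of 20 groups. The *Dis3* cKO effect differed between replicates 4 and 5 and replicates 1 to 3 by the interaction test for 6 members: the log2 fold change was lower by -0.53 for *Top2a*, -0.52 for *Bub1b*, -0.50 for *Cenpe*, -0.50 for *Cdc20*, -0.47 for *Plk1* and -0.37 for *Ccna2* (edgeR adjusted p 0.00516 to 0.0308).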

How the results depend on the processing

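The calls of *Mki67* as higher and of *Ndc80*, *Cenpa*, *Ccnb1*, *Mad2l1* and *Ncapg* as lower were the same genes with DESeq2, with its size factors in edgeR, and with no filter. Of all genes, 4.83% were called lower with DESeq2, 3.08% with its size factors in edgeR and 1.63% with no filter. In the higher direction these shares were 6.72%, 4.81% and 1.67%. Members called lower numbered 10 with the cluster of libraries as a term (adding *Spc24*, *Spc25*, *Birc5*, *Aurkb* and *Anln*), where 8.33% of all genes were called lower. There were 3 within replicates 1 to 3 and 22 within replicates 4 and 5, against 2.74% and 11.7% of all genes. When each library was left out, 4 to 6 members were called lower, against 1.78% to 3.95% of all genes. Members called lower numbered 6 with the length trend removed, with or without the replicate block (adding *Anln*). Of all genes, 2.7% were called lower without that block and 5.27% with it. Members called higher numbered 2 in each cluster and 1 under each other setting. Upstream regions of members called higher numbered 5 with their own library sizes and TMM, against 5.28% of all regions. They numbered 9 to 13 when each library was left out, against 10.7% to 13.5% of all regions. Calls of the interaction test with a library left out are not given, since the cluster of replicates 4 and 5 held 2 libraries of each genotype.

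The replicate numbers were not treated as pairs. Deviations from the group means correlated at 0.136 on average between libraries of the same number, with a lowest value of 0.0826, and 6 of 10 libraries correlated best with their own number. With the replicate block, 7 members were lower, adding *Spc25* and *Aurkb*, and 1 was higher, where 6.67% of all genes were lower and 7.43% higher. Upstream, 11 members were higher, without *Cenpa*, where 13.2% of all regions were.

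The sign of the log2 fold change turned for members near 0, and the cause was not tested. Within replicates 4 and 5 it was -0.12 for *Cenpe*, -0.12 for *Cenpf*, -0.26 for *Bub1b*, -0.14 for *Ncaph*, 0.21 for *Ncapd2*, -0.22 for *Plk1*, -0.088 for *Tpx2* and -0.10 for *Prc1*. Within replicates 1 to 3 it was 0.054 for *Ccnb2*, 0.043 for *Ttk*, 0.027 for *Smc2*, 0.24 for *Top2a*, 0.15 for *Cdc20*, 0.060 for *Kif20a* and 0.015 for *Kif23*. With the length trend removed it was -0.066 for *Cenpf*, 0.042 for *Ccnb2*, 0.038 for *Cdc20*, 0.031 for *Kif20a* and -0.022 for *Prc1*, and with the replicate block added -0.055 for *Cenpf*, 0.040 for *Ccnb2*, 0.020 for *Cdc20*, 0.026 for *Kif20a* and -0.025 for *Prc1*. *Top2a* was at 0.0074 with DESeq2, 0.0089 with its size factors in edgeR, 0.0232 with the cluster term and 0.0225 with the replicate block, and *Kif20a* at 0.0071 with DESeq2 and 0.0077 with its size factors. *Ncaph* was at -0.00028 with the cluster term, -0.00026 with the replicate block and -0.023 without a filter, where *Tpx2* was at -0.0042. Leaving out each library gave -0.015 to 0.097 for *Bub1b*, -0.022 to 0.027 for *Ncaph*, -0.095 to 0.090 for *Ncapd2*, -0.077 to 0.093 for *Top2a*, -0.00059 to 0.12 for *Plk1*, -0.089 to 0.055 for *Cdc20*, -0.043 to 0.035 for *Kif20a*, -0.0011 to 0.044 for *Tpx2* and -0.017 to 0.066 for *Prc1*.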
